A study of Mus musculus with 288 samples.

Results

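The genes described here are 7 genes of cholesterol synthesis and its control, chosen by name: *Hmgcs1*, *Idi1*, *Fdft1*, *Sqle* and *Lss*, which encode enzymes of the pathway, and *Srebf2* and *Insig1*, which encode its regulators. The 7 were found, each as 1 row, among the 35904 genes of the expression tables of every tissue. None of the 7 encodes a receptor or transporter for cholesterol uptake, so uptake is described only through a separate list of genes. The transcripts were measured in wild-type male C57BL/6J mice, 8 weeks old, that were kept in normoxia or exposed for 7 days to intermittent hypoxia (IH), in which oxygen cycled between 21% and 8% during the light phase. Both groups then spent 2 days in constant darkness in normoxia, so that every sample was taken after the exposure had ended. On the second of these days 6 organs (cerebellum, heart, kidney, liver, lung and muscle) were taken at 8 time points, 3 hours apart, from 1:30 to 22:30 h, with 3 replicates per time point, which gave 24 libraries per tissue and treatment and 48 per tissue. The question was whether the level or the daily rhythm of the transcripts differed after IH. The IH exposure models the repeated falls in oxygen of sleep apnea without airway collapse, and whole organs were sampled, so a change can come from any of their cell types, and fewer cells of a type cannot be told apart from less RNA per cell.

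Cells build cholesterol from acetyl-CoA. Hmgcs1 makes HMG-CoA at the start of the mevalonate route, Idi1 interconverts the isoprenoid units, Fdft1 (squalene synthase) joins farnesyl units to squalene, Sqle oxidises squalene to its epoxide, and Lss (lanosterol synthase) closes the sterol rings. *Srebf2* encodes the transcription factor SREBP2, which is released from the endoplasmic reticulum when sterols are low and switches on the genes of the pathway, itself included. Insig1 holds the SREBP escort protein Scap in the endoplasmic reticulum when sterols are plentiful, and its gene is itself a target of SREBP. In the liver the pathway is known to follow feeding and the circadian clock.

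The promoters are shown because SREBP2 is known to bind sterol regulatory elements together with NF-Y, which binds the CCAAT box. RefSeq promoter windows (GRCm38.p6, from 250 bases before to 50 after the gene start) were found for 5 of the 7 members, and none was found for *Sqle* and *Fdft1*. For each of the 5, a stretch of 100 bases before the start used for its window is given on the plus strand, 5′ to 3′, with every match to a searched motif in capitals. That start is not the gene start of the GENCODE annotation given below. By the GENCODE start the Idi1 stretch lies inside the gene, and those of Lss and *Srebf2* run past the start by a few bases.
Hmgcs1, chr13:119690168-119690267: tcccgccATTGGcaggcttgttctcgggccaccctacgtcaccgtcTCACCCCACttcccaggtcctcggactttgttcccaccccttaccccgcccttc
Idi1, chr13:8885506-8885605: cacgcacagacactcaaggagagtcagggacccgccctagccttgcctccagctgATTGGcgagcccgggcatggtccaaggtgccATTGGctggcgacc
Lss, chr10:76531495-76531594: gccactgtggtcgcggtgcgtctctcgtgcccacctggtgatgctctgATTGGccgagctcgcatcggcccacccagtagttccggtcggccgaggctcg
Srebf2, chr15:82147086-82147185: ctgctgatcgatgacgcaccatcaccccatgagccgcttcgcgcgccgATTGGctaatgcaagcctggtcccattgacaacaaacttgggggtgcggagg
Insig1, chr5:28071162-28071261: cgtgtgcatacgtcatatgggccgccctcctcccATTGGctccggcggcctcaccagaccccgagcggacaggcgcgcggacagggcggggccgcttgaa

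A sterol regulatory element, searched as TCACNCCAC on both strands, was found in the window of *Hmgcs1* and in none of the other 4, against 1.24% of all 32851 windows. The CCAAT box, searched as CCAAT on both strands and so also read as ATTGG, was found in all 5 windows, against 37.4% of all windows, with 4 matches in *Hmgcs1* and 2 in *Idi1*. An E-box, searched as CACGTG, which is the core motif of the clock activators, was found in the window of *Insig1* alone, from 101 to 96 bases before the start and so outside the stretch shown, against 7.15% of all windows. The motifs do not overlap each other in these windows. A match describes the letters only, and no binding was measured. In the GRCm38 annotation (GENCODE) all 7 are protein-coding genes: Hmgcs1 at chr13:119690379-119708260, Idi1 at chr13:8885501-8892451, Fdft1 at chr14:63145150-63179578, Sqle at chr15:59315077-59331192, Lss at chr10:76531588-76557138, *Srebf2* at chr15:82147181-82205379 and Insig1 at chr5:28071363-28078662. Fdft1 lies on the minus strand and the other 6 on the plus strand.

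The deposited values were relative transcript abundances (TPM), which correct for transcript length and are comparable between genes of a library. TPM summed to between 989211 and 999188 per library, and no read counts were used, so the depth behind each value is unknown. Each of the 6 marker genes fixed for every tissue was highest in its own tissue. The liver IH library of replicate 2 at 13:30 stood apart, with liver markers summing to 1617 TPM where the other liver libraries held at least 36694 TPM, and with heart markers summing to 7862 TPM against a median of 16.1 TPM in normoxia liver. In the cerebellum, the IH library of replicate 3 at 1:30 held heart markers at 9160 summed TPM, against a median of 572 TPM in IH cerebellum, and cerebellum markers at 352 TPM, against 3598 TPM. In the lung, more genes were detected after IH (25455 ± 1529, SD, n = 24) than in normoxia (22694 ± 737, SD, n = 24), and in the heart fewer (21447 ± 688 against 25124 ± 1719, SD, n = 24 each). For the comparison of treatments TPM was scaled within each tissue by the median of ratios, and results under both scales are given where they differ. Whether replicates of the same number shared an animal across organs, a cage or a batch is not stated.

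The pathway was expressed in all 6 tissues, and for most members the highest and lowest tissue differed by over an order of magnitude. In normoxia, Hmgcs1 was highest in the kidney at 204 ± 35.2 TPM (SD, n = 24 for this and the other tissue levels), followed by the liver (83.5 ± 45.1), cerebellum (75.2 ± 18.1), lung (47.5 ± 6.78), muscle (25.2 ± 5.4) and heart (11.2 ± 3.97). Every neighbouring pair in that order differed except liver and cerebellum (permutation test with 100000 resamples within time points, two-sided, adjusted p = 0.4 for that pair and 2.2e-05 for the others, Benjamini-Hochberg over 35 comparisons, where 1e-05 is the smallest unadjusted p the resamples can give). Idi1 ran in the same order, from 71.2 ± 16.3 TPM in the kidney through 60.2 ± 18.9 in the liver to 3.91 ± 3.21 in the heart, and all of its neighbours differed. Sqle was also highest in the kidney, at 29 ± 4.57 TPM, and lung and liver, both near 20 TPM, did not differ beyond their spread. In the heart Sqle had a median of 0.837 TPM, with a lowest library at 0.482 and a highest at 8.86 TPM.

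The later enzyme Lss and the regulator Insig1 were highest in the liver instead. Lss reached 15.9 ± 5.4 TPM there, above the lung at 10 ± 2.44, and lung and kidney, like cerebellum and muscle, did not differ (adjusted permutation p = 0.058 and 1). Insig1 reached 181 ± 48.9 TPM in the liver, 3.53 times its level in the lung, with no overlap between liver and lung libraries. Fdft1 was highest in muscle (52.2 ± 7.72 TPM) and liver (47.3 ± 12.1 TPM), which did not differ, and was lowest in kidney and heart, near 14 TPM in both. *Srebf2* had yet another order, with the lung at 60.8 ± 9.37 TPM, 2.02 times the kidney at 30.1 ± 4.3 TPM and without overlap, and with liver (13.6 ± 3.55) and heart (12.3 ± 6.09) at the bottom. None of the 5 enzymes was highest in the lung. All 7 genes had their lowest mean in the heart, although Fdft1 did not differ there from the kidney, nor *Srebf2* from the liver, beyond their spread. When TPM were scaled over the libraries of all tissues instead, 6 of the 7 were lowest in the heart, Fdft1 being lowest in the lung, and 4 of the 7 kept the same highest tissue. Idi1, Sqle and Fdft1 were then highest in the liver, although Sqle did not differ there from the kidney (adjusted permutation p = 0.058). *Srebf2* in the lung was then 1.25 times its level in the kidney, and the libraries overlapped.

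**Figure D1:**
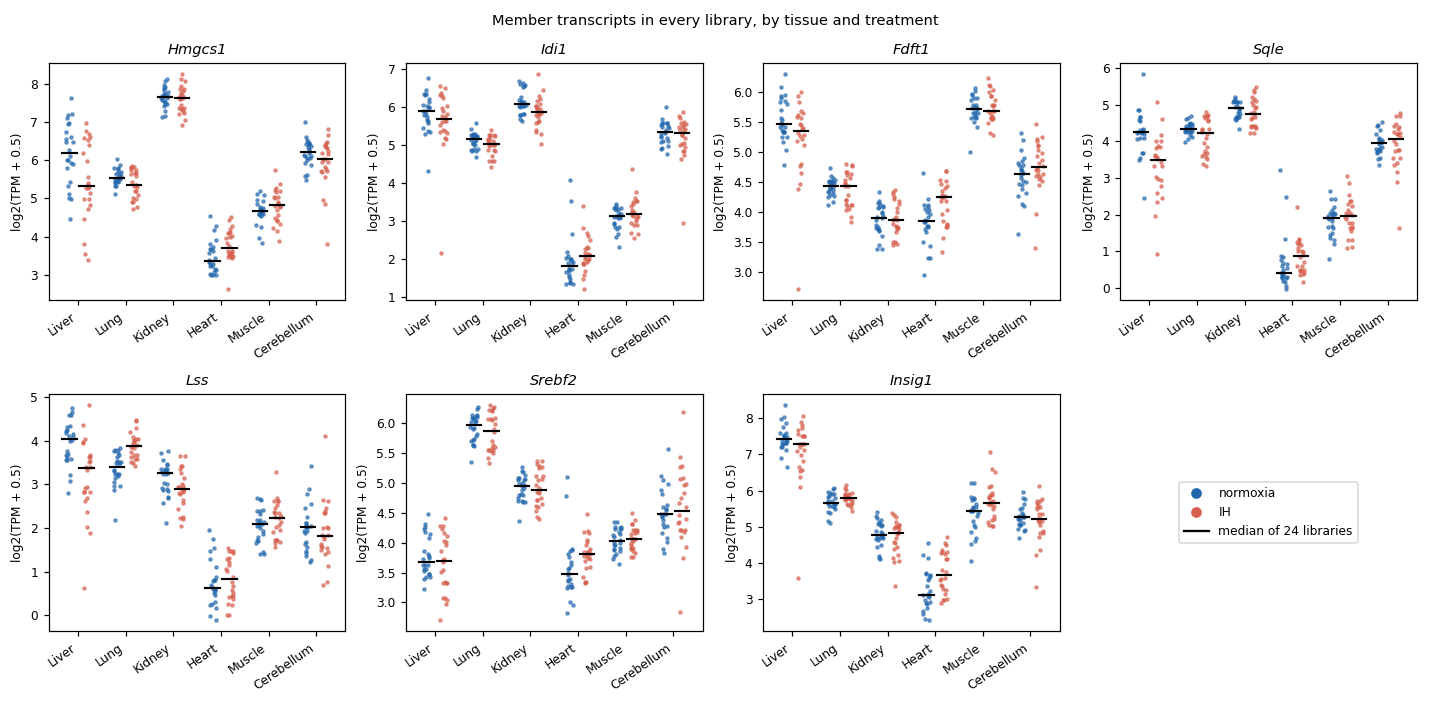
Each panel plots 1 gene, with log2(TPM + 0.5) on the vertical axis and the tissues on the horizontal axis; points are single libraries in normoxia (blue) and after IH (red), and black lines are medians of 24 libraries. Insig1 stands highest in the liver, Srebf2 in the lung, Hmgcs1 in the kidney and Fdft1 in muscle and liver.

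The liver was the tissue in which members fell by over 1.5-fold after IH. Sqle, Lss and Hmgcs1 passed both criteria of change, a change of at least 1.5-fold and an adjusted p of at most 0.05, and the 3 were lower after IH. By both criteria 2.55% of all genes tested in the liver were lower and 1.1% higher, and at the adjusted p alone 13.3% were lower and 10.9% higher. In scaled TPM, Sqle had a lowest, median and highest value of 3.83, 18.5 and 44.2 in normoxia and of 2.63, 10.3 and 29.6 after IH. The groups overlapped, with 21 of the 24 IH libraries below the normoxia median and a lower IH mean at all 8 time points. Its fitted level fell by 0.79 on the log2 scale (SE 0.19, limma adjusted p = 0.00201, n = 24 per group), to 0.58 of that in normoxia.

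Lss in the liver ranged from 6.75 over a median of 15.2 to 22.8 scaled TPM in normoxia and from 1.95 over 9.69 to 24.7 after IH. It was lower at all 8 time points, and 22 of 24 IH libraries lay below the normoxia median. The fitted change was -0.68 on the log2 scale (SE 0.16, limma adjusted p = 0.00202). Hmgcs1 spread more widely, from 16.6 over 78.9 to 155 scaled TPM in normoxia and from 17.5 over 37 to 107 after IH. Its change of -0.60 (SE 0.23, limma adjusted p = 0.0491) stood at the edge of the threshold, although its IH mean was lower at all 8 time points.

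The other members did not pass the test in the liver. Fdft1 had a log2 change of -0.22 (SE 0.12), Insig1 of -0.27 (SE 0.18) and Idi1 of -0.11 (SE 0.18), and *Srebf2*, the gene of the transcription factor, had a change of 0.00 (SE 0.08), with medians of 12.02 scaled TPM in normoxia and 12.99 after IH. The median change of the 7 members was -0.27, where all genes tested in the liver had a median of -0.01.

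The liver result differed with the replicate number. Within replicate number 1 the log2 changes were -1.17 for Sqle, -0.87 for Lss and -0.94 for Hmgcs1, and within number 2 they were -0.89, -0.92 and -0.52. Within number 3 they were -0.30, -0.25 and -0.35, of which 0 passed the test (limma, 8 libraries per treatment), where 1 of all 11334 genes passed. Without replicate number 1 or without number 2, 0 of the 7 members passed, and without number 3 all 3 did. Of all 11334 liver genes, 105, 235 and 4701 passed the adjusted p without numbers 1, 2 and 3, against 2748 in the full comparison. The loss of calls was therefore not particular to the members. Kidney markers moved with these groups: their summed level exceeded 30 TPM in all 24 IH liver libraries and in 5 of the 8 normoxia libraries of number 3, but in 0 of the 16 normoxia libraries of numbers 1 and 2, and its medians were 2.33 and 3.49 TPM in normoxia numbers 1 and 2, 100.2 TPM in normoxia number 3 and 70.2 to 90.4 TPM after IH. With the 8 normoxia libraries of number 3 as the only controls, the changes of Sqle, Lss and Hmgcs1 were -0.75, -0.86 and -0.62, against -0.79, -0.68 and -0.60 in the full comparison, and 0 members and 6 of all 11334 genes passed the adjusted threshold. Without the library that held heart transcripts, Sqle (-0.71) and Lss (-0.60) still passed and Hmgcs1 (-0.55) did not. The part of these library differences in the result was not tested.

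**Figure D2:**
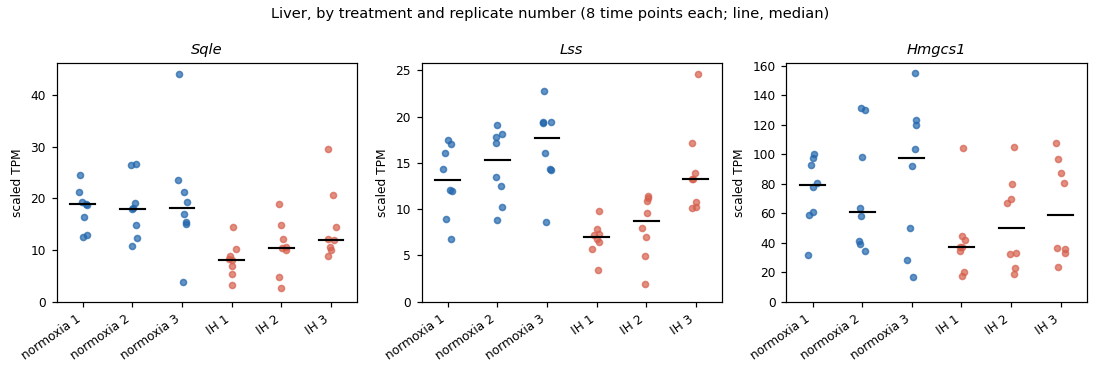
Scaled TPM of Sqle, Lss and Hmgcs1 in the liver, with 1 point per library, grouped by treatment and replicate number (8 time points each), and black lines at the medians. The IH medians of Sqle are 8.17, 10.4 and 12.01 scaled TPM for replicate numbers 1, 2 and 3, against 18.8, 18.05 and 18.1 in normoxia.

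In the lung all 7 members passed the adjusted threshold and none reached a 1.5-fold change, but the lung background was high: by both criteria 4.39% of all lung genes were lower and 9.09% higher, and at the adjusted p alone 41.5% were lower and 28.9% higher. Of the members, 6 were lower and Lss was higher. Sqle ranged from 17.5 over 21.2 to 27.9 scaled TPM in normoxia and from 8.38 over 16.3 to 24.4 after IH, a change of -0.51 (SE 0.11, limma adjusted p = 4.42e-05). Hmgcs1 ranged from 38.7 over 51.4 to 67.7 and from 22.6 over 35.7 to 56.1 scaled TPM, a change of -0.50 (SE 0.09, limma adjusted p = 2.37e-06). For Idi1 all 24 IH libraries lay below the normoxia median of 37.7 scaled TPM, and the change was -0.44 (SE 0.07). *Srebf2* was lower by a log2 change of -0.37 (SE 0.07), Fdft1 by -0.34 (SE 0.07) and Insig1 by -0.18 (SE 0.06).

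Lss, the last of the 5 enzymes, went the other way in the lung. It ranged from 5.54 over 10.9 to 14.5 scaled TPM in normoxia and from 9.14 over 12.9 to 19.8 after IH, was higher at all 8 time points, and had a change of 0.24 (SE 0.09, limma adjusted p = 0.0124). A scale factor moves all genes of a library alike, so it shifts every change relative to 0 and keeps the order of the members within a library.

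The size and even the direction of the other lung changes did depend on the scale. In TPM as deposited the median of all lung genes moved from -0.08 to 0.21 on the log2 scale, and among all genes called by both criteria the number that were higher went from 1402 of 2079 to 2908 of 2966. On that scale only Hmgcs1 (-0.20) and Lss (0.53) passed, and Insig1 turned to 0.12. Of all 15426 lung genes, 10133 passed the adjusted p on that scale, against 10864 on the scaled values. Relative to the median of all lung genes, which a scale factor moves along with the members, the median change of the 7 was -0.29 on the scaled values and 6 of the 7 lay below it. With the number of detected genes as a term, only Idi1 (-0.37) and Lss (0.59) passed and the other 5 had changes between 0.01 and 0.14. With that term 8103 of all 15426 lung genes passed the adjusted p. Within replicate numbers 1 and 2, Sqle changed by -0.74 and -0.75 and *Srebf2* by -0.69 and -0.50, whereas within number 3 they changed by -0.05 and 0.08. Lss changed by -0.04, 0.17 and 0.59 within numbers 1, 2 and 3, and only the last passed. Without number 3 the change of Lss was 0.07 and did not pass, and 3 other members then reached 1.5-fold, where Sqle changed by -0.74, Hmgcs1 by -0.63 and *Srebf2* by -0.59. Of all 15426 lung genes, 3304 passed both criteria without number 3, against 2079 in the full comparison. Lung markers were lower in the IH libraries of numbers 1 and 2, with medians of 83020 and 111281 summed TPM, than in those of number 3 (181392) and in normoxia (165927 to 176925), and leukocyte markers had medians of 7546 to 8130 summed TPM in all 6 of these groups. The part of this in the lung changes was not tested.

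**Figure D3:**
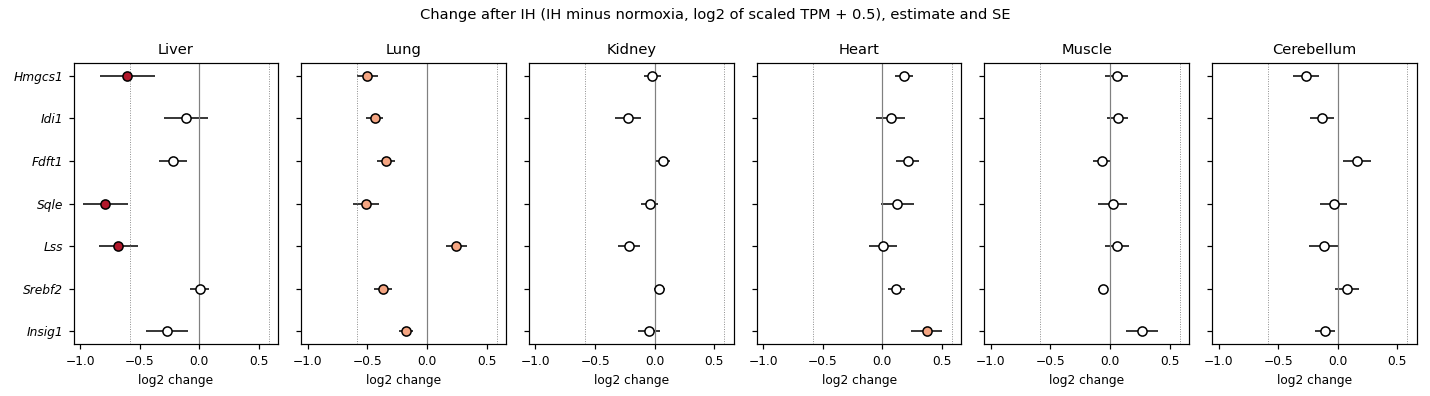
Log2 change after IH (IH minus normoxia, scaled TPM + 0.5) on the horizontal axis with its standard error, for each member and tissue; dark red points passed the adjusted p of 0.05 and 1.5-fold (dotted lines), light red points the adjusted p alone, and white points neither. Sqle, Lss and Hmgcs1 are dark red in the liver, all 7 members are light red in the lung with Lss alone to the right of 0, and Insig1 is light red in the heart.

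In the heart 1 member, Insig1, passed the test and was higher after IH. Insig1 had a lowest, median and highest value of 5.79, 9.37 and 19.2 scaled TPM in normoxia and of 7.19, 11.4 and 21.6 after IH, with 7 of 8 time points higher and a change of 0.37 (SE 0.13, limma adjusted p = 0.0146). This was below 1.5-fold, and of all heart genes 2.95% passed both criteria, 28% were higher and 17.3% lower at the adjusted p alone. The other 6 members had changes between 0.01 (Lss, SE 0.12) and 0.21 (Fdft1, SE 0.10), where the median of all heart genes was 0.04. In TPM as deposited, where the median of all heart genes stood at 0.15, Hmgcs1 (0.30) and Fdft1 (0.33) passed as well. With the number of detected genes as a term, Insig1 had a change of 0.34 (SE 0.23) and did not pass (limma adjusted p = 0.404). Of all 12779 heart genes, 257 passed the adjusted p with that term, so the loss was not particular to Insig1. Without replicate number 1 none passed, where 3050 of all 12779 heart genes passed the adjusted p, against 5780 in the full comparison. Without number 2, Insig1 (0.45) alone passed. Without number 3, Insig1 (0.42), Sqle (0.33), *Srebf2* (0.27), Fdft1 (0.26) and Hmgcs1 (0.23) passed. Of all heart genes, 3488 then passed and were higher. Insig1 had changes of 0.63, 0.21 and 0.27 within numbers 1, 2 and 3. Without 2 heart libraries in which lung markers were high, Insig1 (0.38) and Hmgcs1 (0.18) passed. Adipocyte markers summed to a median of 193 TPM in normoxia heart and 369 TPM in IH heart, and their part in the result was not tested.

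In the kidney, muscle and cerebellum, 0 of the 7 members passed the adjusted threshold in limma, with 2, 0 and 1 at an unadjusted p of 0.05. Of all genes 19.8% of the kidney, 10.4% of the muscle and 15% of the cerebellum passed the adjusted p, and 0.783%, 0.374% and 2.64% passed both criteria. The kidney, where Hmgcs1 was most abundant, had 198 scaled TPM at the normoxia median and 191 after IH (log2 change -0.02, SE 0.07). The lowest kidney changes were those of Idi1 (-0.23, SE 0.11) and Lss (-0.22, SE 0.09), and both were lower at 7 of 8 time points. Idi1 changed by -0.01, -0.04 and -0.63 within replicate numbers 1, 2 and 3 and by -0.02 without number 3, and Lss passed with time point as a term (limma adjusted p = 0.0386). In muscle Insig1 had a change of 0.27 (SE 0.14), and the other 6 lay between -0.07 and 0.06. In the cerebellum Hmgcs1 had a change of -0.26 (SE 0.11) and was lower at 6 of 8 time points. Without the IH library of the cerebellum that held heart transcripts its change was -0.21, 0 members passed, and the cerebellum genes past the adjusted p went from 2234 to 3644 and those past both criteria from 393 to 783.

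The IH change of every member differed between the 6 tissues in an F test of treatment by tissue (limma adjusted p from 2.75e-06 for Sqle to 0.0349 for Idi1), and so did that of 88.3% of the 9876 genes tested, so this is no mark of the members. Heart against lung differed for 6 members and heart against liver for 5, where 60% and 40.9% of all genes differed, with differences of log2 change of 0.91 (SE 0.19) for Sqle between heart and liver and 0.64 (SE 0.19) between heart and lung. Liver and lung differed for Lss (-0.92, SE 0.17) and *Srebf2* (0.37, SE 0.10), where 56.4% of all genes differed. Sqle (-0.27, SE 0.19) and Hmgcs1 (-0.10, SE 0.18) did not pass the test of a difference between liver and lung. Libraries of several organs may come from the same mice and were taken as independent. Without replicate number 1, only Fdft1 and Lss passed the F test, and without number 2 or number 3 all but Idi1 did. Of all 9876 genes, 6814, 6677 and 9146 passed it without numbers 1, 2 and 3. In TPM as deposited Idi1 and *Srebf2* did not pass, where 8397 of all genes did.

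The rest of the pathway was counted from lists of named genes. Of 15 other synthesis enzymes, 7 fell and 0 rose in the liver, and all 15 had changes below 0, with a median of -0.41, where 13.3% of all liver genes fell. Dhcr7, the last reductase of the pathway, fell from 34.5 to 21.1 mean scaled TPM (log2 change -0.80, SE 0.16), Cyp51, the lanosterol demethylase, from 37.6 to 24.1 (-0.70, SE 0.15) and Mvd, the mevalonate diphosphate decarboxylase, from 14.4 to 9.85 (-0.59, SE 0.19). The liver calls of all these lists come from the same libraries as those of the members, and their dependence on the replicate number is not given. Of all 11334 liver genes, 2748 passed the adjusted p in the full comparison, 105 without replicate number 1 and 235 without number 2. In the lung 12 of the 15 fell and 1 rose on the scaled values, where 41.5% of all genes fell and 28.9% rose. There Cyp51 fell from 13.82 to 10.49 mean scaled TPM (-0.43, SE 0.09), while Tm7sf2, a sterol reductase that acts soon after Lss, rose from 8.41 to 13.1 (0.57, SE 0.08). In the heart 4 rose and 1 fell, a share near that of all heart genes (28% rose and 17.3% fell), and Sc5d, the sterol desaturase, had a change of 0.36 (SE 0.08). The kidney had 2 that fell, the cerebellum 2 that rose, among them Mvd (0.51, SE 0.12), and muscle none at the adjusted threshold, where 19.8%, 15% and 10.4% of all genes passed in either direction.

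Of 5 other genes that control SREBP, 0 passed in the liver, 3 fell in the kidney, 2 rose in the heart, and 1 passed in each of the lung, muscle and cerebellum, counts to be read against the same shares of all genes. Scap, the escort protein that Insig1 holds back, had log2 changes of 0.20 (SE 0.04) in the heart, 0.26 (SE 0.07) in the cerebellum and -0.17 (SE 0.04) in muscle, and Mbtps2, a protease that releases SREBP, rose by 0.47 (SE 0.06) in the lung. Of 9 uptake, storage and export genes, 3 fell and 2 rose among the 8 that were tested in the liver. Lrp1, an endocytic receptor for lipoprotein remnants, fell there from 122 to 55.1 mean scaled TPM (-1.13, SE 0.18) and rose in the kidney from 8.36 to 14.1 (0.75, SE 0.08). Mylip, which marks lipoprotein receptors for degradation, rose in the liver (0.56, SE 0.10), and Abca1, a cholesterol exporter, fell there (-0.63, SE 0.20). In the heart 4 of the 9 rose, among them Vldlr (0.33, SE 0.12), where 28% of all genes rose.

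Some members also had daily rhythms, with acrophases (fitted peak times) between 19.6 h and 2.2 h of the labelled time for 8 of the 9 rhythmic in normoxia. A gene was called rhythmic at q of 0.05 in the combined rank and periodogram test. The 2 p-values come from the same libraries, while the Fisher method that combines them takes them as independent, so this q is too low. In the normoxia cerebellum 1014 of 21372 genes passed it, against 0 by the rank test alone. Over the 6 tissues, 9 gene and tissue pairs were rhythmic in normoxia and 5 after IH. In the liver this was Hmgcs1 in normoxia and Hmgcs1 and Idi1 after IH, against 15.5% of all genes in normoxia and 8.33% after IH. Liver Hmgcs1 had time point means of 126.5 ± 29 TPM at 1:30, 94.2 ± 28 at 4:30, 113 ± 75 at 7:30, 37.1 ± 17 at 10:30, 35.4 ± 6.6 at 13:30, 53.2 ± 12 at 16:30, 89.3 ± 23 at 19:30 and 119 ± 29 at 22:30 in normoxia (SD, n = 3). After IH the lowest mean was again at 13:30, with 15.8 ± 8.9 TPM, and the highest was 98 ± 3.6 TPM at 22:30 (SD, n = 3). The cosine fit gave an acrophase of 1.39 ± 0.7 h (SE) in normoxia and 23.8 ± 0.85 h after IH, and an amplitude of 44.5 ± 8.2 and 37 ± 8.2 TPM, which was 53.3% and 68.6% of the MESOR, the rhythm-adjusted mean. For orientation, *Dbp*, an output gene of the clock, had its acrophase at 9.41 h in the normoxia liver.

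The MESOR of liver Hmgcs1 was lower after IH, at 53.9 against 83.5 TPM (difference -29.6, SE 8.18, adjusted p = 0.00587 in a linear model over all genes rhythmic in either treatment, of which 28% differed in the liver). In the lung the MESOR of Hmgcs1 was 42.2 against 47.5 TPM (adjusted p = 0.0485 in the same linear model), where 65.6% of such genes differed. Each of these 2 calls was lost without replicate number 1 and without number 2. Of the 2699 such liver genes, 148 and 187 then differed, against 756 with all libraries. Of the 3548 such lung genes, 2142 and 2043 did, against 2326. Of the 11 gene and tissue pairs rhythmic in either treatment, 0 differed in amplitude or acrophase in that linear model, also at an unadjusted p of 0.05. A rhythm called in 1 treatment and not in the other is therefore no tested difference between them.

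In muscle, Hmgcs1, Idi1, Sqle and Fdft1 were rhythmic in normoxia, against 3.45% of all genes, and Hmgcs1, Sqle and *Srebf2* after IH, against 7.75%. Sqle in normoxia muscle ran from 2.38 ± 0.19 TPM at 13:30 to 4.7 ± 1.1 TPM at 22:30 (SD, n = 3). Fdft1 peaked at the opposite time, from 43.7 ± 11 TPM at 1:30 to 64.1 ± 2.4 TPM at 13:30, with an acrophase of 12.5 ± 0.97 h (SE) against 22.6 ± 1.1 h for Sqle, 22.8 ± 1.7 h for Idi1 and 24.0 ± 1.5 h for Hmgcs1. After IH the muscle acrophases were 11.8 h for Fdft1, 21.4 h for Sqle, 20.3 h for Idi1 and 21.8 h for Hmgcs1. With the replicate block, 5 members were rhythmic in IH muscle, where the share of all genes went from 7.75% to 14.1%. Leaving out any 1 of the 3 replicate numbers left 0 or 1 rhythmic member in each muscle group. Of all 15181 genes, 273 to 436 were then rhythmic in IH muscle, against 1177 with all libraries. In normoxia muscle 116 to 193 were, against 523. *Insig1* in IH muscle had means of 72.8 ± 16 TPM at 13:30 and 97 ± 36 at 16:30, against 45 ± 1.8 and 31.5 ± 14 in normoxia (SD, n = 3). Its treatment by time point test had an unadjusted p of 0.000208 and an adjusted p of 0.561 (limma F test over all 12824 muscle genes). Across the 6 tissues 0 of 42 such tests passed in limma, with 6 at an unadjusted p of 0.05, 5 of them in muscle.

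In the kidney Insig1 and Idi1 were rhythmic in normoxia and none after IH, against 16.3% and 3.59% of all genes. Kidney Insig1 kept acrophases of 19.6 ± 1.1 and 19.2 ± 1 h (SE) and amplitudes of 6.08 and 6.6 TPM in normoxia and after IH. In the lung Sqle and Hmgcs1 were rhythmic in normoxia and none after IH, against 9.42% and 11.6%, and their relative amplitudes were low, 11% and 11.9% of the MESOR. The heart and cerebellum had no rhythmic member, where 0.843% and 4.1% of heart genes and 4.74% and 0.0421% of cerebellum genes were rhythmic in normoxia and IH, and at an unadjusted p of 0.05 the 4 counts were 0 and 0 in the heart and 1 and 0 in the cerebellum. By the rank test alone, 1 member was rhythmic in each liver group, against 8.78% of all genes in normoxia and 3.72% after IH. In normoxia muscle 2 were, against 0.896% of all genes. Elsewhere 0 were, against shares of all genes from 0% in normoxia cerebellum to 5.95% in normoxia kidney.

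**Figure D4:**
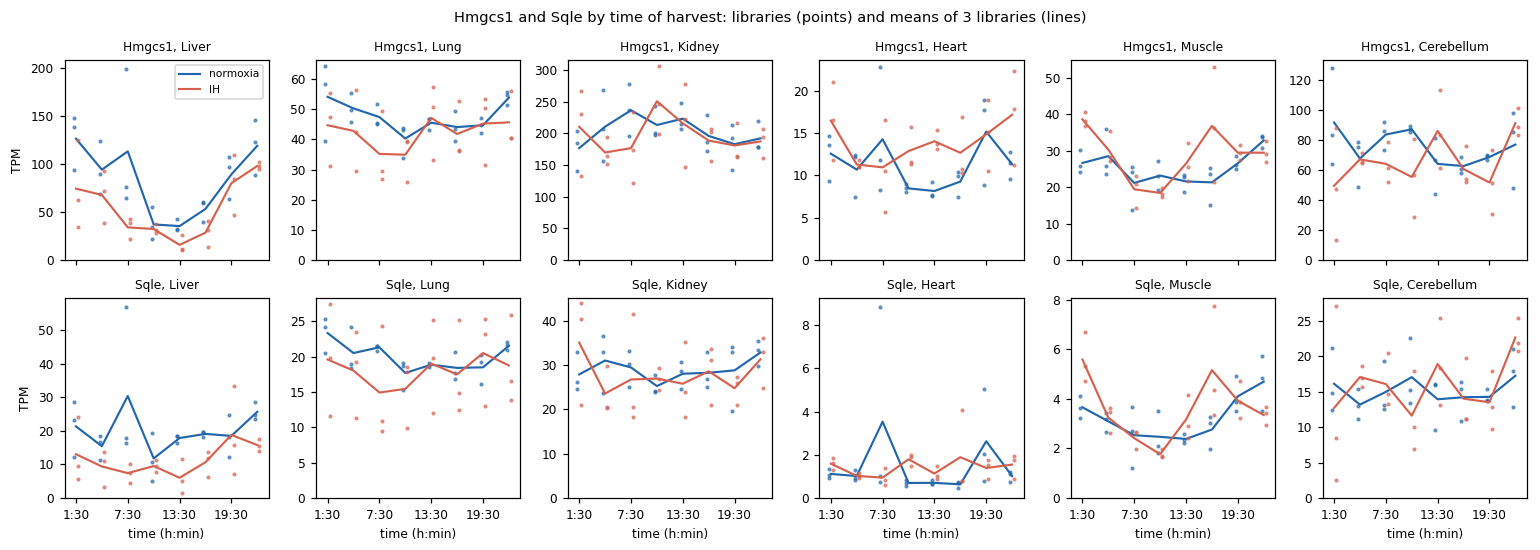
TPM of Hmgcs1 (upper row) and Sqle (lower row) against the labelled time of harvest in the 6 tissues; points are libraries and lines join the means of 3 libraries, in normoxia (blue) and after IH (red). Liver Hmgcs1 falls to its lowest means at 13:30 in both treatments, 35.4 TPM in normoxia and 15.8 TPM after IH, and muscle Sqle is lowest at 13:30 in normoxia.

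Apart from treatment and time, the members varied together from library to library. After time point and treatment means were removed, 87 of the pairs of members (21 in each of 6 tissues) were correlated (permutation test with 100000 resamples within cells of 3 libraries, two-sided, Benjamini-Hochberg adjusted p of 0.05 over the pairs of all tissues, n = 48 libraries), 84 of them with r above 0. By Spearman's rho 91 pairs passed, and 85 passed by both. How many pairs of a member with another gene would pass the same test is not given, so these counts have no background share beside them. The median Pearson r of the 21 pairs was 0.64 in the lung, 0.62 in the liver, 0.56 in heart and muscle, 0.45 in the cerebellum and 0.33 in the kidney, and the median r of members with all other genes, which go both ways, lay between -0.02 and 0.10. The median size of r with other genes, whatever its sign, was highest for lung libraries (0.45) and lowest for muscle libraries (0.20), and for the kidney it was 0.31, close to the 0.33 between members. With the means of each replicate number and treatment also removed, the median r of the members was 0.17 in the kidney and 0.60 in the cerebellum, and the kidney value in normoxia alone was 0.14. Libraries also share their scaling and their cell makeup, so these values describe how transcripts moved together and no more. The closest pair was Hmgcs1 and Sqle, with r = 0.96 in the lung and 0.87 in the liver (adjusted permutation p = 7.4e-05 for both) and Spearman's rho of 0.94 and 0.83 (adjusted permutation p = 7.9e-05 for both), and r of 0.95 and 0.83 without the 2 libraries farthest from the median. In the lung this pair had r = 0.62 in normoxia and 0.98 after IH, and the median r of all pairs was 0.25 and 0.65. In the cerebellum the closest pair was Sqle and Insig1 (r = 0.92, rho = 0.91, and r = 0.90 without those 2).

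Other members stood aside. In muscle Fdft1 went against Hmgcs1 (r = -0.53, adjusted permutation p = 0.012, rho = -0.46, adjusted permutation p = 0.018, and r = -0.49 without the 2 farthest libraries), and in the kidney Idi1 went against Lss (r = -0.49, adjusted permutation p = 0.014, rho = -0.43) and *Srebf2* (r = -0.46, adjusted permutation p = 0.014, rho = -0.44), each with r = -0.48 without 2 libraries. Srebf2 followed Sqle in every tissue, with r from 0.68 in the kidney to 0.89 in the lung, but followed Idi1 only loosely in liver (0.07), lung (0.08) and cerebellum (0.18).

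**Figure D5:**
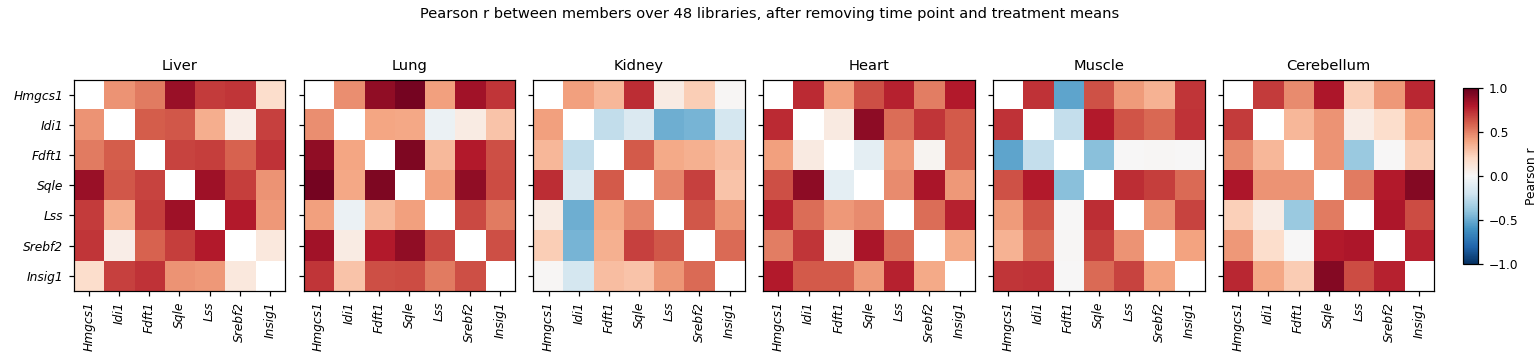
Pearson r between each pair of members over the 48 libraries of a tissue, after time point and treatment means were removed, from blue (-1) to red (1). Most cells are red, the strongest being Hmgcs1 with Sqle in the lung (0.96), and the strongest blue cells are Hmgcs1 with Fdft1 in muscle (-0.53) and Idi1 with Lss in the kidney (-0.49).

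The genes whose levels were most like the mean of the 7 members over 48 libraries were taken as a description. In the liver, out of 7190 genes that averaged 5 TPM or more, these were Rdh11 (r = 0.90), Cyp51 (0.90), Dhcr7 (0.90), Acat2 (0.89) and Hsd17b7 (0.89), and 10 of the 14 other synthesis enzymes ranked were among the first 100. In the lung Fdps (0.93), Fads1 (0.91), Pdk3 (0.91) and Gorasp2 (0.90) were among the first 5 of 11691 genes, with 6 of 14 enzymes among the first 100, and in muscle Scd2 (0.85), Fdps (0.82), Pmvk (0.77) and Cyb5b (0.75) were among the first 5 of 8874, with 7 of 13. The heart list was G6pdx (0.86), Ppp2r5a (0.85), Spg21 (0.85), Cyb5b (0.85) and Wdr6 (0.84), with 2 of 7 enzymes among the first 100. In the kidney Ubqln1 (0.85), Acsl3 (0.85), Aldh8a1 (0.80), Clic4 (0.80) and Nop2 (0.79) came first, with 1 of 15. In the cerebellum Vamp1 (0.91), Pex5l (0.91), Tmem88b (0.91), Ugt8a (0.89) and Tspan2 (0.89) came first, with 3 of 14. The last 2 are known myelin genes, and oligodendrocyte markers summed to between 2835 and 4138 TPM at the medians of the 6 cerebellum groups by treatment and replicate number, from 796 to 11177 TPM over all libraries, and their part in the members' levels was not tested.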

How the data were processed

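RNA was measured in 6 tissues of mice in normoxia or after IH, in 24 libraries per tissue and treatment. The authors aligned reads to the mouse transcriptome (mm10) with Kallisto, summed transcripts to genes and deposited TPM of 35904 genes per library. Their notes also name bcl2fastq, FastQC 0.11.3 and DESeq2, which they fitted to estimated counts that are not analysed here. With no counts, depth and the precision it gives are unknown.

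TPM was scaled per tissue by the median of ratios, log2-transformed after adding 0.5, restricted to genes that averaged 1 TPM or more, and fitted by treatment with limma 3.58.1 (R 4.3.3), with Benjamini-Hochberg adjustment over all genes of a tissue. All tests were two-sided. Rhythm was tested on TPM, for genes reaching 1 TPM, by re-implemented JTK and Lomb-Scargle tests at 24 hours combined by the Fisher method. That method takes the 2 tests as independent, which they are not. MESOR, amplitude and acrophase were compared by cosine fits over genes rhythmic in either treatment. Python 3.11.15, numpy 2.4.6, scipy 1.17.1, pandas 2.3.3 and matplotlib 3.10.9 were used, and the limma and rhythm scripts were tested on simulated data. p-values measure the spread between libraries.

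All 7 members were described. From other lists up to 3 genes per tissue with the largest change past the test were named, and per tissue the 5 genes most correlated with the mean z-scored level of the members. Of the genes these rules name, 2 are not reported here. Dbp was chosen after its values were seen. Members, lists and rules were chosen with earlier results of these data known. Alternatives changed the pseudocount, filter, scale, model terms and libraries, and 2 of them, on the controls of the liver and on 2 heart libraries, were chosen after seeing the data.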

Additional observations from a re-analysis of the deposited data

Results flagged for a closer look

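The change after IH differed between the 6 tissues for each of the 7 genes in the test of treatment by tissue, which is what brought them here. The limma adjusted p was 2.75e-06 for Sqle, 6.63e-06 for Lss, 3.87e-05 for Hmgcs1, 4.57e-05 for Srebf2, 0.000122 for Fdft1, 0.000929 for Insig1 and 0.0349 for Idi1. Of all 9876 genes tested, 88.3% passed the same test. Dixon's test of single samples was not applied, since groups of 24 libraries are above its size and groups of 3 below it.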

How the results depend on the processing

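Of 610 log2 changes recomputed under alternatives, 553 kept their side of the threshold without a called value turning, 50 of them with a change of sign in a value that passed in neither fit, while 32 lost the call, 17 gained it and 8 turned direction. Of 369 recomputed counts of members, 297 stayed within 1.5 times. All 8 turns were in the lung. With the number of detected genes as a term, Fdft1 stood at 0.048, Hmgcs1 at 0.013, Insig1 at 0.026, Sqle at 0.14 and Srebf2 at 0.13. In TPM as deposited Insig1 stood at 0.12, within replicate number 1 Lss at -0.037 and within number 3 Srebf2 at 0.077. The cause was not tested for any of these.

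Members past the adjusted p in the heart numbered 2 at a mean of at least 5 TPM, 3 in TPM as deposited, 3 with time point as a term, 2 with the replicate block, 0 with genes detected as a term, 2, 0 and 0 within replicate numbers 1, 2 and 3 (1 of them past 1.5-fold within number 1), 2 without the 2 libraries named, and 0 to 5 without 1 replicate. Of all 12779 heart genes, 5780 passed in the full comparison, 5604 in TPM as deposited, 5861 with time point and 5863 with the block. With genes detected as a term 257 passed. Within numbers 1, 2 and 3 there were 4745, 1317 and 589, and 3050 to 5673 without 1 replicate. Without the 2 libraries 5585 passed, and at a mean of at least 5 TPM 3882 of 8128. In the kidney they numbered 1 with time point as a term, 2 within replicate number 3 (1 of them past 1.5-fold) and 0 to 1 without 1 replicate, and in the cerebellum 0 to 1 without 1 replicate. Of all 12902 kidney genes, 2904, 3596 and 2024 to 2556 passed in these fits, against 2552 in the full comparison. Of all 14892 cerebellum genes, 47 to 5219 passed without 1 replicate, against 2234. In the liver, by either criterion, they numbered 1 within replicate number 2, 0 within number 3, 0 with the normoxia libraries of number 3 alone, and 0 to 3 without 1 replicate. Of all 11334 liver genes, 2059, 1, 6 and 105 to 4701 passed the adjusted p in these fits, against 2748 in the full comparison. Past both criteria there were 1034, 1, 6 and 47 to 1514, against 414. In the lung 2 passed in TPM as deposited, 2 with genes detected as a term and 2 within number 3, and 6 to 7 without 1 replicate, while past 1.5-fold there were 1 with genes detected as a term, 3, 2 and 1 within numbers 1, 2 and 3, and 0 to 3 without 1 replicate. Of all 15426 lung genes, 10133, 8103, 9068 and 9456 to 10796 passed the adjusted p in these fits, against 10864 in the full comparison. Past 1.5-fold, in the same order as the members, there were 1686, then 3687, 3084 and 1987, then 1596 to 3304, against 2079. Between tissues, 2 to 6 of the 7 differed without 1 replicate, where 6677 to 9146 of all 9876 genes did.

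Rhythmic members by the rank test alone numbered 0 in normoxia kidney, 1 in IH liver, 0 in normoxia lung, 0 in IH muscle and 2 in normoxia muscle, and by the cosine fit alone 1, 1, 0, 0 and 2. In the same order, 5.95%, 3.72%, 2.83%, 2.26% and 0.896% of all genes passed the rank test. By the cosine fit 8.49%, 2.86%, 2.99%, 2.28% and 0.87% of all genes did. On the log2 scale they numbered 1 in IH kidney and 1 in IH liver, against 12% and 7.42% of all genes. With the replicate block they numbered 1 in IH kidney, 5 in IH liver, 2 in normoxia liver, 4 in normoxia lung and 5 in IH muscle. Of all genes 8.09%, 19.3%, 34.8%, 16% and 14.1% were rhythmic there with the block. Without 1 replicate they numbered 0 to 2 in normoxia kidney, 1 to 2 in each liver group, 0 to 2 in normoxia lung and 0 to 1 in each muscle group. Of all genes, 2.18% to 21.3% were then rhythmic in normoxia kidney and 1.79% to 6.49% in normoxia lung. In the liver 6.62% to 18.2% were in normoxia and 2.48% to 6.17% after IH. In muscle 0.764% to 1.27% were in normoxia and 1.8% to 2.87% after IH. Members with a different MESOR numbered 0 to 1 in kidney and liver and 0 to 2 in the lung without 1 replicate, and 2 in the lung on scaled TPM. Without 1 replicate 199 to 653 of 2560 rhythmic kidney genes and 148 to 1120 of 2699 in the liver differed. In the lung 2043 to 2211 of 3548 did, and 2486 on scaled TPM. Same-numbered libraries did not deviate together in every pair: of 24 pairs per tissue, between 5 (lung) and 16 (liver) had a correlation over 0.1, so the replicate numbers were not taken to pair samples. Averaged over time points, the correlations of numbers 1, 2 and 3 were 0.155, 0.375 and 0.650 in muscle, all over 0.1, and 0.669, -0.0646 and 0.487 in the liver. In the fit of IH against normoxia, the block changed no count of members past the adjusted p in muscle or liver. In the rhythm test it did, from 2 to 5 members in IH liver, from 1 to 2 in normoxia liver and from 3 to 5 in IH muscle. The shares of all genes went from 8.33% to 19.3%, from 15.5% to 34.8% and from 7.75% to 14.1%. The depth of the libraries is unknown, so no limit on low values such as heart Sqle can be given.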
